A study of Mus musculus with 12 samples.

Results

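The data describe 10 listed enzymes of mitochondrial beta-oxidation in the hearts of diabetic and healthy mice, sedentary or trained on a treadmill. Their members were chosen by name, as all probe sets of the MG_U74Av2 array annotated to Acadm, Acadl, Acadvl, Acads, Hadh, Hadha, Acaa2, Decr1, Eci1 or Cpt2. Of the 10 genes, 9 had a probe set, with 12 probe sets in all of 12422 that were not controls. Hadha had none and was skipped. A probe set is a group of short oligonucleotides whose combined brightness gives a signal for a transcript.

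Mitochondrial beta-oxidation shortens fatty acyl-CoA chains inside the mitochondrial matrix, and in the adult heart it supplies much of the energy for contraction. Acyl groups enter on carnitine and are handed back to coenzyme A by Cpt2. Acyl-CoA dehydrogenases, hydratases, hydroxyacyl-CoA dehydrogenases and thiolases then act in turn. Decr1 reduces and Eci1 moves double bonds of unsaturated acids that would otherwise stop the spiral. Many genes of the pathway are known targets of PPARalpha, a nuclear receptor that binds fatty acids.

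The mice were male NMRI animals, for which an age of 10 to 15 weeks is given. Diabetic mice had received 1 injection of streptozotocin at 180 mg/kg, a toxin of insulin-producing beta cells that gives a diabetes like type 1, and healthy mice had received buffer. Training was treadmill running, 1 h daily at 21 m/min and a 2.5-degree incline, 5 days a week, and the hearts came from mice killed 24 h after their final run. The groups were diabetic trained, diabetic sedentary, healthy trained and healthy sedentary, each with 1 array at weeks 1, 3 and 5, so 12 arrays in all. Each array held pooled cardiac RNA of 5 mice, so a p-value here measures how an effect varied between pools and weeks, not between animals. In such pools fewer cells of a type and less RNA per cell cannot be told apart.

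Signals were deposited on a linear scale that sets the trimmed mean of each array to 50, and the number of arrays limits the precision. The diabetic trained array of week 3 had a median signal of 25.4, against 16.6 to 20.4 on the other 11; its mean correlation with the others was 0.853, against 0.940 to 0.953 elsewhere. That array had a run day and a chip lot of its own, and it was the lowest of 12 in 3 of the 9 tested member probe sets and the highest in 1, so results are also given without it. Each condition had its own fluidics module, and the effects of these cannot be told apart. The highest signal of the 19 bacterial and yeast control probe sets, called the control signal below, was 13.8. Cardiomyocyte markers were bright, with 9 of 9 measured genes above it on all arrays and Myh6, the alpha myosin heavy chain, between 3076.9 and 5017.2.

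RefSeq promoters (assembly GRCm38.p6, 300 bases each, most of them before the start) were searched, and counts are given for 8 of the 10 genes. Decr1 and Acaa2 are left out of these counts, so nothing is stated on their promoters. Those of Acadl, Acadm, Cpt2 and Eci1 are shown because the results below turn on the values of these enzymes. They lie at chr1:66863260-66863559 on the minus strand (Acadl), chr3:153944594-153944893 on the minus strand (Acadm), chr4:107923540-107923839 on the minus strand (Cpt2) and chr17:24426433-24426732 on the plus strand (Eci1). Sequences run 5′ to 3′, and capitals mark AGGTCA, the core motif of nuclear receptor sites, and GGGCGG, the GC box, each searched on both strands.
Acadl: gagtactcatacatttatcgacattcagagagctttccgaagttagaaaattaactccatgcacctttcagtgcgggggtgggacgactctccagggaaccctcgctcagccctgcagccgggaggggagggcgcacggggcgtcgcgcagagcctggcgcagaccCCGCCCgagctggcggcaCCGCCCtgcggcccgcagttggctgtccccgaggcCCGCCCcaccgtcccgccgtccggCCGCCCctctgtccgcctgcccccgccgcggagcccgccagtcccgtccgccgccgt
Acadm: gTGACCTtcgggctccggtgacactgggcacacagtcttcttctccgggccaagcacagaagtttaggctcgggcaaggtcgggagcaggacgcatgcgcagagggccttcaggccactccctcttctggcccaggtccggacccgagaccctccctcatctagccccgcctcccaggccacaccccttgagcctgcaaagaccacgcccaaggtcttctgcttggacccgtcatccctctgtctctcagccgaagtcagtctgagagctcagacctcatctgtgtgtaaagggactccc
Cpt2: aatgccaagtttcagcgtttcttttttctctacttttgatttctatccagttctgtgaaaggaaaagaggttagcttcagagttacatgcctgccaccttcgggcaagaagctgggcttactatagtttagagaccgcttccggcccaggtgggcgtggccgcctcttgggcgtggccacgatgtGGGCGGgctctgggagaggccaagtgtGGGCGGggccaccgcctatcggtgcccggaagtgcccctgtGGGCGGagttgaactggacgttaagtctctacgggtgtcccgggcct
Eci1: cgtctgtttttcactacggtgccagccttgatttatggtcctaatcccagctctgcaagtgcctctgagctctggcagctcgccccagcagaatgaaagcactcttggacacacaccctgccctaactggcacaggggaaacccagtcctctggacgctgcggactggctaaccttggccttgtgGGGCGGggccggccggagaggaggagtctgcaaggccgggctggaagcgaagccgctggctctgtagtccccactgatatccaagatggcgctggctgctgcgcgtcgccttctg
AGGTCA or its reverse complement stood in 2 of the 8 windows, those of Acadm and Acadvl, and in 16.3% of all 32851 promoters of the table. GGGCGG stood in 6 of the 8 and in 35.7% of all, with 4 matches for Acadl, 3 for Cpt2 and 1 for Eci1. The motifs cannot overlap each other. The direct repeat, AGGTCA followed after 1 base by AGGTCA in the same direction, the form that PPARalpha binds, had no match in the 8 windows and 13 in the table (0.0396%). A match is a stretch of letters and does not show binding.

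With diabetes, Decr1 rose, the carnitine enzyme Cpt2 was lower and the dehydrogenase Acadl higher in every week-matched pair without passing the test, and Acadm (0.06), Hadh (0.05) and Acaa2 (0.04) had differences near 0. Over both training states 1 of 9 tested member probe sets passed, against 0.765% of all 7453 tested (57 probe sets, 28 higher and 29 lower, and with median centring 6 higher and 2 lower). At an unadjusted p under 0.05 there were 4 members, Decr1, Eci1 and Acadl with higher signals and Cpt2 with a lower one. Eci1, the last of the 4 by p (0.0457 by limma), ranked 822 of all 7453, so many other probe sets lay under 0.05 too. The median log2 difference over the 8 tested genes was 0.06, and -0.02 over all probe sets tested. Differences are on the log2 scale with week removed, diabetic minus healthy, and adjusted p-values are those of limma over all tested probe sets.

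Decr1, the 2,4-dienoyl-CoA reductase that clears conjugated double bonds, had signals of 234.4, 201.0 and 682.8 in diabetic trained hearts and 347.4, 362.6 and 500.8 in diabetic sedentary hearts at weeks 1, 3 and 5. Healthy trained hearts had 165.2, 175.4 and 317.8 and healthy sedentary hearts 143.8, 153.0 and 316.1. The diabetic array was above the healthy array of the same week and training state in 6 of 6 pairs, by 0.20 to 1.27 on the log2 scale, while the pooled ranges overlapped because week 5 was high in all groups. The mean signal was 388 ± 179 in diabetic hearts and 212 ± 82.1 in healthy hearts (SD, n = 6 each), and with week removed it was 1.78-fold higher (log2 difference 0.83, SE 0.15, adjusted p = 0.0326). Without the diabetic trained array of week 3 the difference was 0.94 (SE 0.13, adjusted p = 0.00548). The call was lost without the diabetic sedentary arrays of weeks 1 or 3 or without any of the 6 healthy arrays (adjusted p from 0.0665 to 0.132), at differences of 0.76 to 0.86. It was also lost with median centring, with dim probe sets kept in, without a variance trend, or without all of week 1 or week 5 (adjusted p from 0.113 to 0.289), and without week as a block (adjusted p = 0.541).

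Eci1, the enoyl-CoA isomerase that moves double bonds into the position the spiral can use, had signals of 1025.4, 597.7 and 1161.8 in diabetic trained hearts and 1079.5, 1024.6 and 1140.3 in diabetic sedentary hearts. Healthy trained hearts had 844.1, 797.5 and 858.4 and healthy sedentary hearts 803.5, 754.7 and 798.6. The diabetic trained array of week 3 was the lowest of all 12, and the other 5 diabetic arrays all lay above all 6 healthy arrays. How many of all tested probe sets separated in this way without that array was not counted. Over all arrays the difference was 0.28 (SE 0.13, adjusted p = 0.413). Without that array, diabetic hearts averaged 1086 ± 63.6 (SD, n = 5) and healthy hearts 809 ± 37.1 (n = 6), and the difference of 0.41 passed (SE 0.07, adjusted p = 0.0148). Of the 9 member probe sets 2 passed without it, Decr1 and Eci1, against 2.05% of all tested.

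Cpt2, carnitine palmitoyltransferase 2 of the inner membrane, had signals of 573.1, 318.3 and 459.1 in diabetic trained hearts and 472.9, 367.8 and 443.9 in diabetic sedentary hearts. Healthy trained hearts had 597.2, 564.2 and 563.9 and healthy sedentary hearts 590.9, 571.7 and 579.2. All 6 week-matched pairs were lower in diabetic hearts, by 0.06 to 0.83 on the log2 scale in size, and only the diabetic trained array of week 1 reached into the healthy range. The mean was 439 ± 88.5 in diabetic hearts and 578 ± 13.9 in healthy hearts (SD, n = 6 each), so the healthy pools were tight and the diabetic ones scattered. The difference of -0.42 (SE 0.11) missed the threshold with adjusted p = 0.13, the nearest of the members that did not pass, and with the diabetic trained array of week 3 left out it was -0.33 (adjusted p = 0.0753). A second Cpt2 probe set, 161978_r_at, had signals of 0.3 to 3.3 and was too dim to test.

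**Figure D1:**
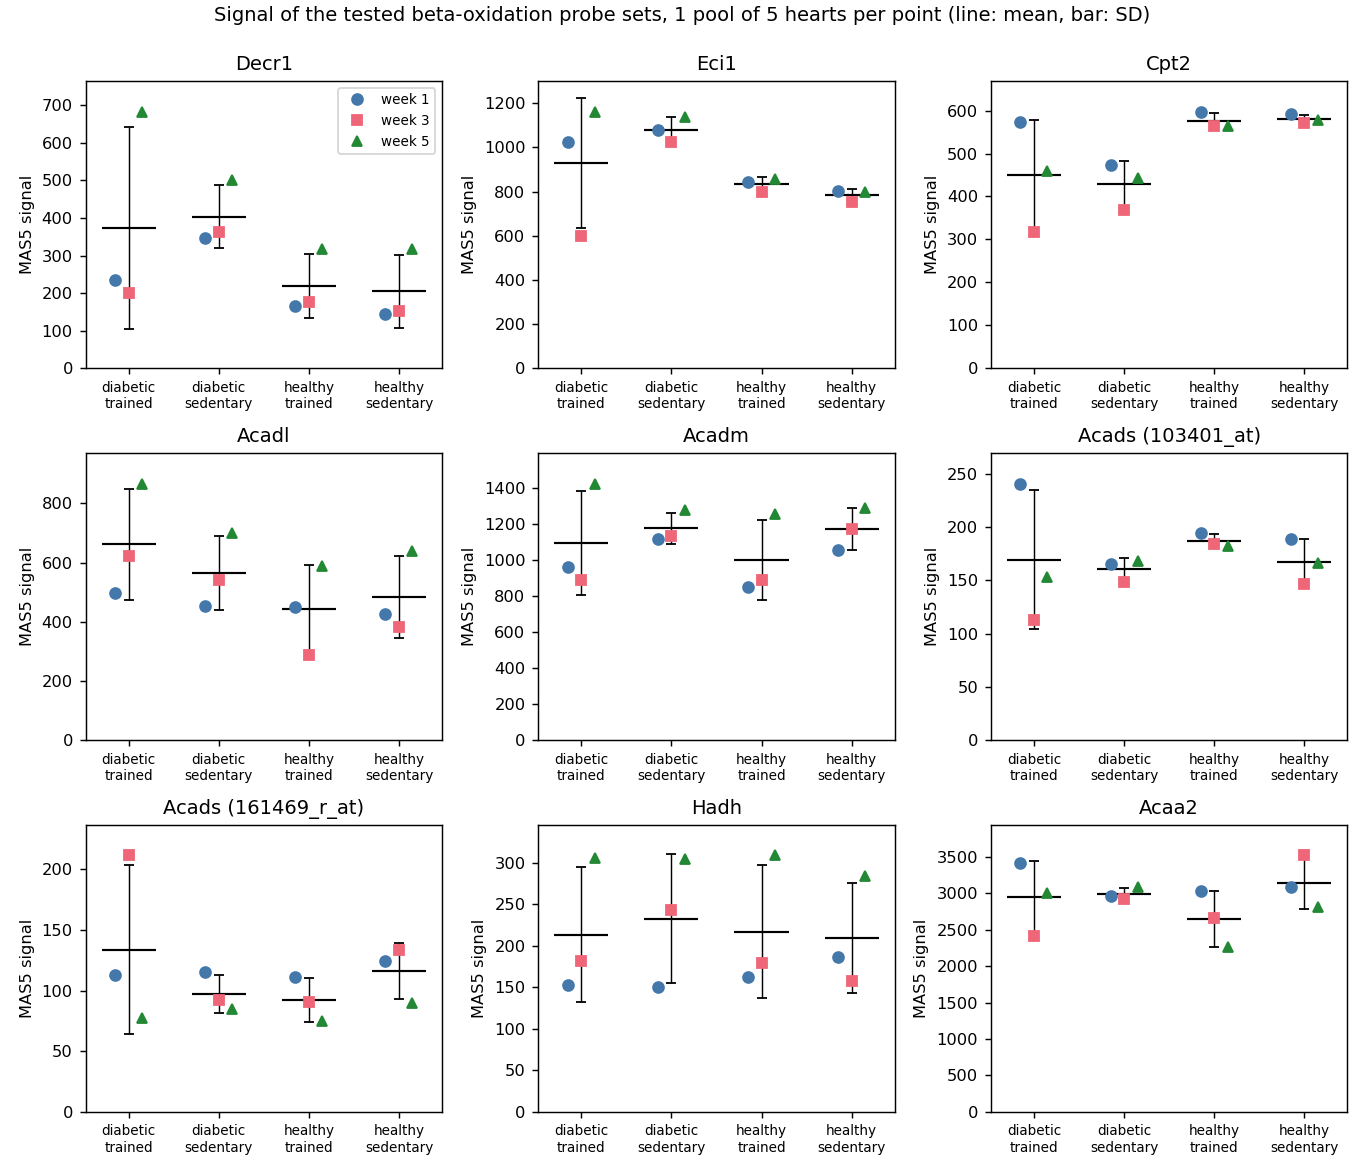
Signal of the 9 tested probe sets, 1 panel each, on a linear axis that starts at 0. Each point is 1 pool of 5 hearts, colour and shape give the week, and the line and bar give mean and SD of a group (n = 3); Decr1 is above its healthy counterpart at each week, Cpt2 is tight in healthy hearts and lower in diabetic ones, and Eci1 has a low diabetic trained point at 597.7.

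Among the dehydrogenases of the first step, Acadl, which takes long and branched chains, had signals of 497.3, 621.3 and 866.9 in diabetic trained hearts and 451.8, 540.0 and 700.5 in diabetic sedentary hearts. Healthy trained hearts had 449.8, 287.2 and 588.7 and healthy sedentary hearts 426.7, 382.5 and 640.1. The diabetic array was higher in 6 of 6 pairs, by 0.08 to 1.11, and the pooled ranges overlapped. Diabetic hearts averaged 613 ± 153 and healthy hearts 463 ± 131 (SD, n = 6 each), a difference of 0.42 (SE 0.13, adjusted p = 0.18), and of 0.36 (adjusted p = 0.153) without the diabetic trained array of week 3.

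Acadm, the medium-chain dehydrogenase, had signals of 961.8, 889.3 and 1422.7 in diabetic trained hearts and 1117.1, 1130.0 and 1275.3 in diabetic sedentary hearts. Healthy trained hearts had 849.5, 889.5 and 1253.9 and healthy sedentary hearts 1055.5, 1169.0 and 1286.4. Diabetic and healthy hearts overlapped almost fully, with 3 of 6 pairs higher, and the 95% interval of the difference ran from -0.16 to 0.29 around 0.06. Acads, the short-chain dehydrogenase, had a difference of -0.14 (SE 0.13) on probe set 103401_at and of 0.09 (SE 0.17) on 161469_r_at. These probe sets parted on the diabetic trained array of week 3, which was the lowest of 12 on the first at 113.1 and the highest of 12 on the second at 211.6. Some probes of an _r_at set are not unique to their gene, so the second may hold signal of other transcripts.

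Acadvl, the very-long-chain dehydrogenase of the inner membrane, could not be followed. Its probe sets 161623_at and 93334_at had signals of 0.7 to 5.2 and 0.3 to 5.8, under the control signal of 13.8 on all arrays. In all, 3 of the 12 member probe sets fell below the filter on dim probe sets (a geometric mean signal of 11.6), and 9 probe sets of 8 genes were tested.

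Of the later steps, Hadh, which oxidises the hydroxyl group of short and medium chains, differed by 0.05 (SE 0.12, 95% interval -0.21 to 0.32), with 223 ± 72.0 in diabetic hearts and 213 ± 65.96 in healthy hearts (SD, n = 6 each). Acaa2, the thiolase that cuts off acetyl-CoA, differed by 0.04 (SE 0.12, interval -0.21 to 0.30), with 2968 ± 323 in diabetic hearts and 2895 ± 426 in healthy hearts. For both genes 3 of 6 pairs were higher and 3 lower in diabetic hearts. Both intervals include 0.28, the difference measured for Eci1 over all arrays.

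**Figure D2:**
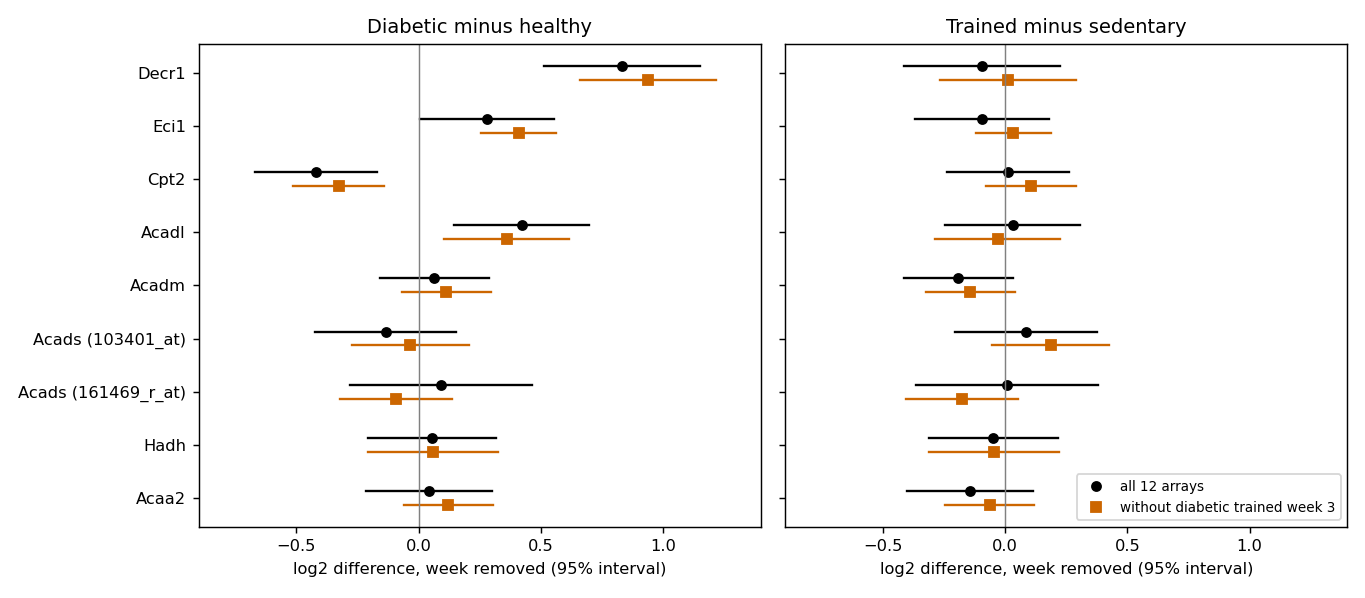
Log2 difference of each tested member probe set with its 95% interval, diabetic minus healthy on the left and trained minus sedentary on the right, from all 12 arrays (black) and without the diabetic trained array of week 3 (orange). For diabetes, Decr1 lies at 0.83 and Cpt2 at -0.42, and Eci1 moves to 0.41 without that array; for training, all intervals from 12 arrays hold 0.

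Within sedentary hearts, diabetic minus healthy, 0 of 9 member probe sets passed by limma, against 0.0537% of all, and 3 had an unadjusted p under 0.05. Decr1 differed by 1.06 (SE 0.21, adjusted p = 0.138), Eci1 by 0.46 (SE 0.18, adjusted p = 0.551) and Cpt2 by -0.45 (SE 0.16, adjusted p = 0.513). Eci1, the last of the 3 by p, ranked 323 of all 7453 probe sets. For each of these 3 the signals of the 3 diabetic and the 3 healthy sedentary arrays did not overlap. How many of all tested probe sets separated in this way was not counted, so the lack of overlap is only a description. With the diabetic trained array of week 3 left out, which here enters only the spread and the week terms, Decr1 (adjusted p = 0.0242) and Eci1 (adjusted p = 0.0472) passed with the same differences, against 0.805% of all, and Cpt2 did not (adjusted p = 0.0994).

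Within trained hearts, diabetic minus healthy, 0 of 9 passed by limma, against 0.0268% of all, with 3 at an unadjusted p under 0.05. These were Decr1 (0.60, SE 0.21, adjusted p = 0.408), Acadl (0.61, SE 0.18, adjusted p = 0.388) and Cpt2 (-0.39, SE 0.16, adjusted p = 0.451). Cpt2, the last of the 3 by p, ranked 525 of all 7453 probe sets. Without the diabetic trained array of week 3, 0 of 9 again passed by limma, against 0.0671% of all, and 4 had an unadjusted p under 0.05 (the count of all at that p is not given here). These were Decr1 (0.81, SE 0.19), Acadl (0.48, SE 0.18), Eci1 (0.36, SE 0.11, against 0.10 with all arrays) and Acaa2 (0.31, SE 0.13, against 0.15), while Cpt2 was at -0.21 (SE 0.13, unadjusted p = 0.131). Diabetic trained against healthy sedentary hearts, which share controls with the sedentary pair, also gave 0 of 9 passed by limma, against 0.0537% of all, and 3 at an unadjusted p under 0.05 (2 without that array). Of these 3, Cpt2 was last by p and ranked 449 of all 7453 probe sets. The difference between the diabetes effects in trained and sedentary hearts was tested as an interaction, and 0 of 9 members and 0% of all probe sets passed by limma (0 members and 321 of all at an unadjusted p under 0.05). For Decr1 it was -0.46 (SE 0.29, adjusted p = 0.859), an interval from -1.10 to 0.18, and without that array it was -0.25 (SE 0.25), an interval from -0.80 to 0.31. Without that array Acaa2 had an interaction of 0.37 (SE 0.17, unadjusted p = 0.0456, adjusted p = 1), the 1 member under 0.05 unadjusted. When the diabetes effect was let change steadily with week, 0 of 9 members and 0% of all passed by limma (0 members and 115 of all unadjusted), and the slope was -0.04 to 0.06 log2 units per week for the 9 probe sets.

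Treadmill training moved no member past the threshold. Over both disease states 0 of 9 passed by limma, against 0% of all 7453, with 0 members and 257 of all at an unadjusted p under 0.05. The differences, trained minus sedentary, ran from -0.19 for Acadm to 0.09 for Acads on 103401_at. For Acadm the interval was -0.41 to 0.03, with 1044 ± 237 in trained hearts and 1172 ± 91.8 in sedentary hearts (SD, n = 6 each) and 5 of 6 pairs lower. For Decr1 it was -0.41 to 0.23, and trained hearts averaged 296 ± 197 against 304 ± 136 in sedentary hearts, a difference smaller than either spread. In diabetic hearts alone and in healthy hearts alone training also gave 0 of 9 and 0% of all, with 0 members at an unadjusted p under 0.05 in either (533 and 152 of all). Without the diabetic trained array of week 3, 3 member probe sets had an unadjusted p under 0.05 in healthy hearts, all lower with training at unchanged differences, and 0 in diabetic hearts (361 and 379 of all). The 3 were Acads on 161469_r_at (-0.33, SE 0.14), Acadm (-0.25, SE 0.11) and Acaa2 (-0.25, SE 0.11), each with an adjusted p of 0.989 by limma. With array weights 2 members were under 0.05 unadjusted in each, and the count of all probe sets at that p is not given here. Decr1 differed by -0.32 (SE 0.21) with training in diabetic hearts and by 0.14 (SE 0.21) in healthy hearts, and without that array the value in diabetic hearts was -0.11 (SE 0.19).

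Week gave the largest count of member calls among the comparisons made. Between week 5 and week 1, 4 of 9 probe sets passed, all higher at week 5, against 15.4% of all probe sets (1145), of which 631 were higher and 514 lower (659 and 135 with median centring, which moved the median of all probe sets to 0.07, against -0.10). The members that rose were Decr1, Hadh, Acadl and Acadm. Week 5 had a chip lot and a run day to itself, so the week, the lot and the day cannot be told apart.

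Hadh at week 5 had 305.9 in diabetic trained, 305.2 in diabetic sedentary, 309.2 in healthy trained and 284.6 in healthy sedentary hearts, against 153.3, 150.3, 163.0 and 186.6 at week 1. The 4 signals of week 5 lay close together and above all of week 1, whatever the disease or training. The means were 301 ± 11.2 at week 5 and 163 ± 16.5 at week 1 (SD, n = 4 each), a log2 difference of 0.89 (SE 0.15, adjusted p = 0.00506) that passed without any single array. Decr1 averaged 454 ± 175 at week 5 and 223 ± 91.7 at week 1 (1.04, SE 0.18, adjusted p = 0.00653, higher in 4 of 4 conditions), and this call too held in all 12 fits without an array. Both also passed under each of the 8 other alternatives run. How many of all tested probe sets separated weeks 5 and 1 without overlap was not counted, for Hadh here or for Acadl and Acadm below.

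Acadl differed by 0.60 (SE 0.15, adjusted p = 0.0266) and its signals at week 5 (588.7 to 866.9) did not overlap those at week 1 (426.7 to 497.3). It lost the call without any of the week 1 arrays of diabetic trained, diabetic sedentary or healthy sedentary hearts, or the week 5 arrays of diabetic trained, healthy trained or healthy sedentary hearts (adjusted p from 0.0551 to 0.0987). Acadm was just past the threshold (0.40, SE 0.12, adjusted p = 0.0499), with 1253.9 to 1422.7 at week 5 and 849.5 to 1117.1 at week 1. It kept the call only without the diabetic trained array of week 3 or the diabetic sedentary array of week 5, and lost it without any other single array (adjusted p from 0.0614 to 0.177). Both Acadl and Acadm also lost it under quantile normalization, without the filter and without a trend (adjusted p from 0.0591 to 0.1), and Acadm with median centring (adjusted p = 0.0804) and with log2(signal + 16), where it lay at the threshold (adjusted p = 0.05). Acads on 161469_r_at was lower at week 5 in all 4 conditions (-0.51, SE 0.21, adjusted p = 0.115) and passed (adjusted p = 0.0089) when the diabetic trained array of week 3 was left out; 5 member probe sets then passed, against 32.3% of all. Eci1 (0.07), Cpt2 (-0.13) and Acaa2 (-0.17) had adjusted p from 0.423 to 0.789.

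**Figure D3:**
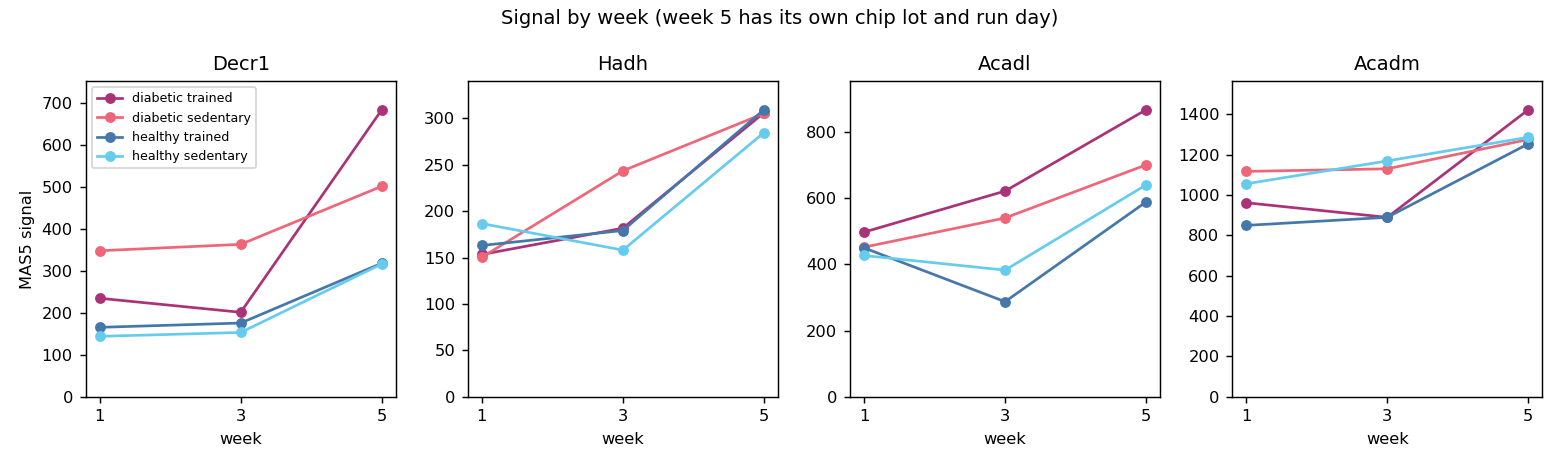
Signal of Decr1, Hadh, Acadl and Acadm at weeks 1, 3 and 5, each line 1 condition and each point 1 pool of 5 hearts, on linear axes from 0. Hadh reaches 284.6 to 309.2 in all 4 conditions at week 5, and Decr1 has its highest signal, 682.8, in diabetic trained hearts at week 5.

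Other genes of the pathway had no call for diabetes over all 12 arrays. Of 16 further genes of mitochondrial beta-oxidation and electron transfer, 12 had a tested probe set and 0 passed for diabetes by limma (3 at an unadjusted p under 0.05), with 9 of 12 differences above 0 and a median of 0.19. The highest were Cpt1a (0.61, SE 0.18, adjusted p = 0.163), the liver form of the outer carnitine transferase, and Ech1 (0.38, SE 0.10, adjusted p = 0.127), an isomerase that prepares dienes for Decr1. The lowest were Etfb (-0.10), a subunit of the electron transfer flavoprotein, and Acad9 (-0.02), a dehydrogenase that also helps assemble complex I. Without the diabetic trained array of week 3 the median was 0.22 and 2 passed, both higher, against 2.05% of all tested (153 probe sets).

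Peroxisomal beta-oxidation, which shortens very long chains, had 6 tested genes of 10, with 0 past the threshold by limma, 0 at an unadjusted p under 0.05 and a median of 0.03. Its thiolase Acaa1b (0.36) and multifunctional enzyme Hsd17b4 (0.22) were highest, and the racemase Amacr (-0.39) and the thiolase Acaa1a (-0.25) lowest. Citrate cycle enzymes, which burn the acetyl-CoA made, had 15 tested genes of 17 with 0 past the threshold by limma (4 unadjusted) and 3 of 15 differences above 0. Their median was -0.12, and -0.07 without the diabetic trained array of week 3. Subunits of succinate dehydrogenase (Sdha, 0.16) and succinyl-CoA ligase (Suclg2, 0.06) were highest, and Ogdh (-0.35) of the oxoglutarate dehydrogenase complex and the ligase subunit Sucla2 (-0.34) lowest.

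**Figure D4:**
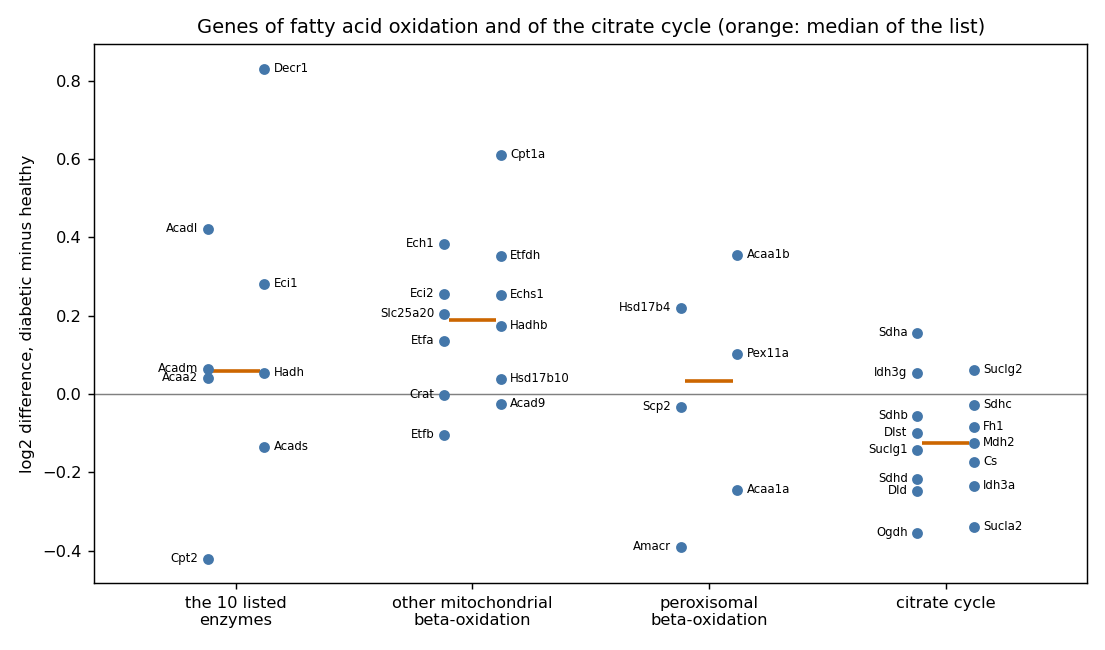
Log2 difference, diabetic minus healthy with week removed, of each tested gene in 4 lists (1 point per gene, its brightest probe set), with the median of a list in orange. Decr1 at 0.83 is the highest point and Cpt2 at -0.42 the lowest; 9 of 12 other mitochondrial genes lie above 0, and 3 of 15 citrate cycle genes do.

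Over both disease states training left 0 genes past the threshold by limma in each of these lists, with 0 at an unadjusted p under 0.05. In diabetic hearts alone 0 passed by limma. There 2 of 12 further mitochondrial and 1 of 6 peroxisomal genes had an unadjusted p under 0.05 (the count of all is given above). The medians of these 2 lists were -0.11 and -0.26, and -0.009 and 0.002 without the diabetic trained array of week 3. At week 5 against week 1, where 15.4% of all probe sets passed (32.3% without the diabetic trained array of week 3), the further mitochondrial genes had 3 of 12 that rose, the hydratase Echs1 (0.68), the flavoprotein subunit Etfa (0.73) and the dehydrogenase Hsd17b10 (0.60), and 1 that fell, the carnitine acetyltransferase Crat (-0.49). Without that array 6 were higher and 1 lower. Of 6 peroxisomal genes the thiolase and carrier Scp2 rose (0.92) and Pex11a, a factor of peroxisome division, fell (-0.66). Of 15 citrate cycle genes Dld (0.98), Sucla2 (0.54) and Sdha (0.50) rose and Idh3a fell (-0.52), and without that array 4 were higher and 2 lower. Among markers of other cells at week 5, Lum (0.74) rose and Col1a1 (-1.36) fell of 7 fibroblast genes, Kdr (0.64) rose and Eng (-0.79) fell of 8 endothelial genes, and Lipe (-0.92) fell of 5 adipocyte genes. Of 9 cardiomyocyte markers 0 passed by limma (3 unadjusted), 7 were lower and the median was -0.21, and without that array 1 passed as higher and 2 as lower. The 3′ to 5′ signal ratio of the actin control probe sets, a sign of RNA integrity, was 2.11 to 2.52 on the week 5 arrays, 2.46 on the healthy trained array of week 1 and 1.70 to 1.99 on the other 7, while the Gapdh ratio was 1.04 to 1.19 at week 5 and 1.03 to 1.25 on the other 8. Their part in the week results was not tested.

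The tested markers of fat cells had differences above 0 for diabetes, as Decr1 had, but none passed over all 12 arrays. Of 10 adipocyte markers 8 had a probe set and 5 were tested, with 0 past the threshold by limma (3 unadjusted), all 5 differences above 0 and a median of 0.57. Without the diabetic trained array of week 3, 3 of the 5 passed, against 2.05% of all tested (153 probe sets), and the median was 0.61. The summed signal of the 8 was 332.5 to 480.2 in diabetic hearts and 242.4 to 316.2 in healthy hearts, without overlap. Among them Lipe, the hormone-sensitive lipase (0.88, adjusted p = 0.0741), and Fabp4, a fatty acid binding protein (0.73, adjusted p = 0.0877), were highest. Cidea (0.57, adjusted p = 0.153), Adipoq (0.51, adjusted p = 0.491) and Lep (0.24, adjusted p = 0.732) were lower. Of the untested genes, Retn (1.2 to 12.4) and Cidec (0.3 to 4.6) stayed under the control signal of 13.8 on all arrays, and Ucp1 ranged from 5.5 to 22.3. Mean signals in diabetic and healthy hearts were 3.57 and 4.03 for Retn, 2 and 0.82 for Cidec, and 9.75 and 9.3 for Ucp1. The part of fat cells in the Decr1 result was not tested. Of the 9 cardiomyocyte markers Ckm, the muscle creatine kinase on an _f_at probe set that can share signal with relatives, fell (-0.53, SE 0.11, adjusted p = 0.0461), and none of the other 8 passed. Of the 9, 8 had differences below 0, with a median of -0.11. The median was -0.26 within sedentary hearts (2 of 9 above 0) and -0.02 within trained hearts (3 of 9 above 0). Cpt2 differed by -0.45 and -0.39 in these. The part of the cardiomyocyte markers in the lower Cpt2 signal was not tested. Endothelial (8 tested), fibroblast (7) and macrophage and neutrophil markers (5) had medians of -0.07, 0.01 and 0.04, with 0 past the threshold by limma (1, 3 and 1 unadjusted). The fibroblast genes had differences of both signs, with Col1a1 at -1.01 (adjusted p = 0.0827), Col3a1 at -0.91 (adjusted p = 0.12) and Pdgfra at 0.31 (adjusted p = 0.278), and 1 passed as higher without the diabetic trained array of week 3.

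The genes whose pattern over the 12 arrays was most like Decr1, after removal of week means, were Hsd17b11 (Pearson r = 0.977), Cd63 (0.973), Ccn2 (0.952), Txnip (0.950) and Gtf2b (0.946). The arrays share scaling and batch, so these are descriptions with n = 12. The diabetes difference was left in the values, so genes picked for likeness to Decr1 are apt to differ with diabetes as it does. Their differences are therefore no separate result. Of these, Hsd17b11, a dehydrogenase of lipid droplets (0.82, SE 0.13, adjusted p = 0.0175), Ccn2, a matricellular protein (1.57, SE 0.14), and Txnip, a thioredoxin inhibitor (0.87, SE 0.15), rose with diabetes. Cd63, a tetraspanin of late endosomes (0.63, adjusted p = 0.0508), and Gtf2b, a general transcription factor (0.40, adjusted p = 0.189), did not pass. Among the members, Eci1 was most like Decr1 (r = 0.82), followed by Acadl (0.55), Acadm (0.42), Hadh (0.30) and Acaa2 (0.16). Both Acads probe sets (-0.26 and -0.25) and Cpt2 (-0.68) had negative values.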

How the data were processed

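Signal intensities on a linear scale were deposited by the authors as 1 value per probe set and array, and the submitters' processing notes name MAS5, whose version is not given in the sources used here. A scan record per array gave run day, chip lot and fluidics module. Of 12488 probe sets, 66 controls were left out. Symbols came from the array annotation (10833 probe sets with 1 symbol, 396 with several, 1193 with none), and 10817 were updated through RefSeq. Signals under 4.1, the 20th percentile, were set to 4.1, and log2 was taken. The 7453 probe sets with a mean log2 signal at or above the 40th percentile were fitted with limma 3.58.1 (R 4.3.3, lmFit and eBayes with an intensity trend) on all 12 arrays, with condition and week as factors and 6 residual degrees of freedom (5 for the change per week). Benjamini-Hochberg adjustment ran over all tested probe sets of a comparison, and 0.05 was the threshold. The fit was tested on simulated data with independent noise, no week effect and no outlying array. That test does not cover these features of the real data. Levels of different probe sets were compared only for the control signal, the brightest probe set of a list gene and the summed list signals.

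Replicate numbers are weeks. Arrays of a week were run on the same day, except the diabetic trained array of week 3, and week was kept as a block. Deviations from condition means correlated at 0.080 to 0.640 within a week (18 pairs, median 0.27) and at -0.452 to 0.246 between weeks (36 pairs, median -0.214). All member probe sets were described. A list gene entered with its brightest probe set; those that passed, or otherwise the 2 highest and 2 lowest for diabetes, were named. The 5 named genes most like Decr1 were those of highest r. Ckm, Lum, Col1a1, Col3a1, Pdgfra, Kdr, Eng, Lipe, Fabp4, Cidea, Adipoq, Lep, Retn, Cidec, Ucp1 and Myh6 were picked from the marker lists after their values were seen. The members and lists were chosen with earlier results of these data known. Alternatives were median centring, quantile normalization, no or a stricter filter, log2(signal + 16), no trend, array weights, no week block, only the arrays compared, and leaving out each array or week.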

Additional observations from a re-analysis of the deposited data

Results flagged for a closer look

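Eci1 was flagged because 1 of its 6 diabetic arrays lay far from the rest. The diabetic trained array of week 3 had a signal of 597.7, and its gap to the nearest other diabetic array was 0.811 of the whole range of the group on the log2 scale, above Dixon's 95% critical value. Of 18 groups tested in this way 1 was flagged, and chance flags about 1 in 20. The same array stood apart over all probe sets, at a mean correlation of 0.853 with the others.

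Acads on probe set 161469_r_at was flagged because its diabetes effect went up in all 3 trained pairs (0.02, 1.23 and 0.04 at weeks 1, 3 and 5) and down in all 3 sedentary pairs (-0.12, -0.54 and -0.08). The difference of the effects was 0.68 (SE 0.34) and did not pass (limma, adjusted p = 0.859). Without the diabetic trained array of week 3 it was 0.31 (SE 0.21, adjusted p = 1). The other Acads probe set, 103401_at, had a difference of -0.16 (SE 0.26).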

How the results depend on the processing

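For diabetes 1 of 9 members passed. The count was 0 with median centring, without the filter, without a trend, without week 1 and without week 5, and 2 with array weights, and it ranged from 0 to 2 when single arrays were left out. The fit with no replicate block gave 0 of 9, with Decr1 at 0.83 (SE 0.31, adjusted p = 0.541). The Decr1 difference was above 0 under all alternatives (0.69 to 0.95), with adjusted p from 0.00165 to 0.541. For diabetic against healthy sedentary hearts 0 passed, against 2 with array weights, 1 with only the arrays compared and 0 to 2 when single arrays were left out. The count was 2 without the diabetic trained array of week 3, 1 without that of week 5, and 0 without any other single array. For week 5 against week 1 the 4 calls were 2 under quantile normalization, without the filter and without a trend, and ranged from 2 to 5 when single arrays were left out. The cause of these changes was not tested.

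Small differences changed sign. Acaa2 for diabetes was -0.00065 with centring and -0.072 without week 5 (-0.0066 to 0.12 without single arrays). Acads on 161469_r_at was -0.045 with array weights and -0.033 without week 3 (-0.093 to 0.19). Hadh was -0.079 without week 3 (-0.039 to 0.14). For week 5 against week 1, Cpt2 was 0.039 with centring, and Eci1 ran from -0.056 to 0.14 without single arrays.

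Over all probe sets the 57 calls for diabetes were 8 with centring (6 higher, 2 lower, against 28 and 29), 6 without the filter, 9 without a trend, 10 without the week block, 192 with array weights, 5 to 153 without single arrays, and 7 and 0 without weeks 1 and 5. For week 5 the 1145 calls (631 higher, 514 lower) were 650 without the filter, 2683 with array weights, 2252 with only the arrays compared, 794 with centring (659 higher, 135 lower) and 272 to 2406 without single arrays; the median of all probe sets was -0.10, and 0.07 with centring. The 4 calls in sedentary hearts were 0 with centring and without the filter, 9 with quantile normalization or the stricter filter, 2 without a trend, 158 with array weights, 35 with only the arrays compared, 1 without the week block and 0 to 60 without single arrays. Dim probe sets, such as both of Acadvl, allow no statement.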
